A study of Mus musculus with 8 samples.

Results

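The mouse genes named Zfp600 to Zfp999 are numbered zinc finger genes, and 148 of the 19938 genes measured in these retinas carry such a name. A gene belonged to the family when its single symbol in the platform annotation ran from Zfp600 to Zfp999, with or without a letter after the number, and the probe set with the highest mean signal stood for the gene. The family was chosen by measured values: it was taken up because Zfp763, Zfp931, Zfp874b and Zfp979 were among the largest differences of the series. Every difference between groups below is therefore a description of these arrays and supports nothing by itself. The retinas came from male C57BL/6 mice, 6 weeks old at the start, injected with saline or with MPTP and examined after 1 week (7 days) or 4 weeks (28 days). MPTP is turned into MPP+, a toxin that dopamine neurons take up, and it serves as a chemical model of Parkinson disease. Each of the 4 groups (saline 1 week, MPTP 1 week, saline 4 weeks, MPTP 4 weeks) had 6 mice and 2 arrays, and each array held RNA from a pool of 4 retinas. Whether both pools of a group were taken from different mice is not given in the labels, so the spread between arrays may be partly technical.

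Most numbered Zfp proteins carry runs of C2H2 zinc fingers, small zinc-holding loops that read DNA. Many also carry a KRAB domain, which recruits the corepressor TRIM28 (also called KAP1) and through it the histone methyltransferase SETDB1 and HP1 proteins, so that chromatin at the bound site is silenced. The best known targets of such proteins are endogenous retroviruses and other transposable elements. KRAB zinc finger genes arose by repeated duplication, lie in clusters and are often near copies of one another, which matters for an array, because a probe can pair with the mRNA of a relative. The number in the name carries no function.

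Promoter sequence is shown for the 4 genes on which the choice of the family rests, because near copies can differ upstream of the start even where their coding parts are alike. The 250 bases before the RefSeq start are given 5′ to 3′ on the gene's strand (build GRCm38.p6, minus strand in each case), at chr17:33033382-33033631 for Zfp763, chr2:178078426-178078675 for Zfp931, chr13:67484254-67484503 for Zfp874b and chr4:147642509-147642758 for Zfp979. Capitals mark 3 motifs that were searched on both strands. The CCAAT box is written CCAAT, which appears as ATTGG when it lies on the opposite strand. The GC box is written GGGCGG, which appears as CCGCCC when it lies on the opposite strand. The core of the YY1 motif is written CCGCCAT, which appears as ATGGCGG when it lies on the opposite strand.
Zfp763: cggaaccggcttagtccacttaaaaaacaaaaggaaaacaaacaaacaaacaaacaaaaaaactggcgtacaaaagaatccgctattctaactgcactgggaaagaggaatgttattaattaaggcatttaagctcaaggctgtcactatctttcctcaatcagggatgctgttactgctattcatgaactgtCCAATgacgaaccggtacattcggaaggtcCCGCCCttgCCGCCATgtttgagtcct
Zfp931: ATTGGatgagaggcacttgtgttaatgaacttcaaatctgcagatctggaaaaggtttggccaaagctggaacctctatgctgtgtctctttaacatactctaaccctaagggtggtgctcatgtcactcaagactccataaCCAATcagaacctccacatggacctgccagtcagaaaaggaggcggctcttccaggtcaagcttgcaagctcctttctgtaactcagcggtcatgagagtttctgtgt
Zfp874b: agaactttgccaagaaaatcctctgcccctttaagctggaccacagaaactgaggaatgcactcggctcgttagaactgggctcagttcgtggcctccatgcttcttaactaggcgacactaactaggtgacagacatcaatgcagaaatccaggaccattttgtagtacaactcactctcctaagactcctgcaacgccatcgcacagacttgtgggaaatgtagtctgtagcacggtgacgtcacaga
Zfp979: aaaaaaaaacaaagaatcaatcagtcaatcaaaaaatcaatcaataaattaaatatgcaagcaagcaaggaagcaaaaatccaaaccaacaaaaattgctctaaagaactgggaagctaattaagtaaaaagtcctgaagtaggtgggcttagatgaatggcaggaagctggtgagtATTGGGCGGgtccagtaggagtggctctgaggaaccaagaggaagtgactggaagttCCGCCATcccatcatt
Counted from the start, Zfp763 held a CCAAT box whose first base lies at -57, a GC box at -27 and a YY1 core at -18. Zfp979 held a CCAAT box at -73 that overlaps a GC box at -70, and a YY1 core at -16. The Zfp931 window held CCAAT boxes at -250 and -108. None of these motifs was found in the Zfp874b window.

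RefSeq promoters were matched for 128 of the 148 genes, with 157 promoters in all, and 20 genes had no entry. The CCAAT box was present in 51.6% of the 157 promoters, against 33.8% of all 32851 promoters of the same length in the table. A GC box was present in 42% against 32.7%, and a TATA box (TATAAA, or TTTATA on the other strand) in 5.73% against 12.4%. The YY1 core, a motif added after the sequences had been read, was present in 7.01% against 2.21%. The median number of CG dinucleotides in the window was 10 in the family and 6 over all promoters. A match is a run of letters and not a measured binding site.

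The tissue and the arrays were checked first. The 7 rod genes measured of 8 listed had a mean log2 signal between 11.23 and 11.37 on every array, and each stood above percentile 95.7 or at it. Markers of neighbouring tissue varied more: the 10 lens genes averaged 7.13 to 8.17 and the 9 genes of the retinal pigment epithelium 7.31 to 8.00, both highest in MPTP 1 week array 2. The lowest single lens and pigment epithelium genes lay at percentiles 37.4 and 30.3 of signal, so no listed marker was near the bottom of the scale. The first principal component (38.3% of the variance) set saline 1 week array 2 (15.69) and MPTP 1 week array 1 (19.11) apart from the other arrays, so 1 array of each treatment at 1 week stood apart.

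Both arrays that stand apart carried high zinc finger signal. Their signals over all genes were also more widely spread, with interquartile ranges of 1.904 and 1.916, against 1.655 to 1.74 on the other 6 arrays. On a wider array bright genes of any kind can read high, and 59.5% of the family lay above percentile 50 of signal. The part of this spread in the zinc finger signal was not tested. Relative to each gene's own mean, the median deviation of the 148 genes was 0.06 in saline 1 week array 2 and 0.05 in MPTP 1 week array 1 on the log2 scale. It lay between -0.04 and 0.01 on the other 6 arrays. One of those 2 arrays was the highest of the 8 for 68 of the 148 genes (45.9%), against 32.2% of all genes, and the lowest for 33 (22.3%), against 39.5%. The 194 genes named Zfp1 to Zfp599 showed the same pattern, with median deviations of 0.04 and 0.06 on these arrays. The part of these arrays in the differences below was not tested, and values without them are given for the named genes that moved by over 1.5 times. Without both, 1 week rests on saline array 1 and MPTP array 2 alone, the latter highest in lens and pigment epithelium markers. Leaving out 1 array also leaves its group with a single array, so such values lack a replicate there.

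**Figure D1:**
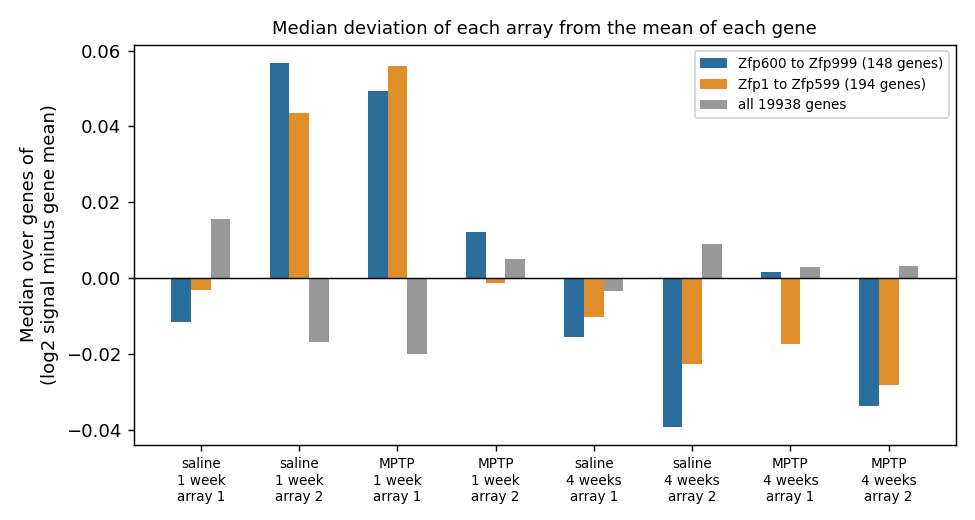
Bars give, for each array, the median over genes of log2 signal minus the gene's mean over the 8 arrays, for Zfp600 to Zfp999, Zfp1 to Zfp599 and all genes. In saline 1 week array 2 and MPTP 1 week array 1 both zinc finger sets lie above 0 (0.06 and 0.05 for Zfp600 to Zfp999) while all genes lie at -0.02.

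Signal spanned nearly the whole scale of the array. Mean log2 signal ran from 2.57 (Zfp600) to 10.53 (Zfp644), with a median of 7.23, which is percentile 58.12 of all genes, and 88 of the 148 genes lay above percentile 50. A signal compares a probe set with itself across arrays; signals of different probe sets give no order of mRNA amounts. The highest means were those of Zfp644, a partner of the histone methyltransferases G9a and GLP whose human counterpart has been linked to severe myopia, Zfp654, Zfp938, Zfp871 and Zfp664. Zfp644 read 10.55 and 10.55 in saline and 10.50 and 10.60 in MPTP at 1 week, and 10.51 and 10.57 in saline and 10.47 and 10.50 in MPTP at 4 weeks. Its 8 arrays spanned 0.13, and the groups overlapped at 1 week.

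At the dim end stood Zfp600 (2.57), Zfp640 (2.76), Zfp979 (2.81), Zfp735 (3.36) and Zfp980 (3.45), all under percentile 1.36 of signal or at it. RMA does not give a detection call, so these 5 values do not say whether the mRNA was present. Zfp979, described under the name Ssm1b as a strain-specific modifier of DNA methylation, is in this dim group, and its differences are differences near the floor of the array. Zfp600, Zfp979 and Zfp980 are also named together by a shared probe set that names 6 genes, left out of the comparisons, whose mean was 5.67.

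The spread within groups was a little wider than elsewhere. The within-group standard deviation (4 groups of 2 arrays) had a median of 0.11 over the 148 genes, 0.10 over Zfp1 to Zfp599 and 0.10 over all genes. The range over the 8 arrays had a median of 0.36 in the family and 0.33 over all genes. It was widest in Zfp980 (1.40), Zfp931 (1.31), Zfp959 (1.30), Zfp971 (1.16) and Zfp874b (1.00). Zfp980 read 3.48 and 3.50 in saline 1 week, 2.69 and 3.86 in MPTP 1 week, 4.09 and 3.52 in saline 4 weeks, and 3.08 and 3.39 in MPTP 4 weeks. The replicate arrays of the MPTP 1 week group, 2.69 and 3.86, were the farthest apart within a group.

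Zfp763 had the highest MPTP minus saline difference of the family at 1 week and over both times. Its log2 signal was 7.28 and 7.45 in saline and 7.88 and 8.04 in MPTP at 1 week, then 7.38 and 7.16 in saline and 7.71 and 7.54 in MPTP at 4 weeks. Every MPTP array lay above every saline array, at each time and over both times together. MPTP minus saline was 0.59 ± 0.12 at 1 week (limma standard error, n = 2 arrays per group, 1.51-fold), 0.35 ± 0.12 at 4 weeks (1.28-fold) and 0.47 ± 0.08 over both times (n = 4 per treatment, 1.39-fold). At 1 week it ranked 9 of 19938 genes from the top and over both times 5. The adjusted p of the fit across all genes was 0.973 over both times, so it did not pass the threshold of 0.05. Leaving out any 1 array kept the 1-week value between 0.51 and 0.68. Without both arrays that stand apart it was 0.76, from 1 array per treatment at 1 week. In bulk tissue, fewer cells of a type and less mRNA per cell cannot be told apart, here and in all that follows.

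Zfp931 and Zfp971, which lie next to each other in the RefSeq annotation of GRCm38.p6, both read high in MPTP at 1 week. Zfp931 gave 6.05 and 6.74 in saline and 7.02 and 6.85 in MPTP at 1 week, and 6.16 and 6.11 in saline and 6.38 and 5.70 in MPTP at 4 weeks. Its MPTP arrays lay above saline at 1 week (0.54 ± 0.24), while at 4 weeks the MPTP arrays fell on either side of saline (-0.09 ± 0.24). The higher saline value at 1 week, 6.74, and the highest value, 7.02, came from the arrays that stand apart, without which the 1-week difference was 0.80. Without saline 1 week array 1 it was 0.19, and without saline 1 week array 2 it was 0.88. Without MPTP 4 weeks array 2 the 4-week value turned to 0.25.

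Zfp971 gave 8.84 and 9.20 in saline and 9.25 and 9.79 in MPTP at 1 week, and 8.84 and 8.72 in saline and 9.58 and 8.63 in MPTP at 4 weeks. As for Zfp931, the second MPTP array at 4 weeks was the lowest of all 8. The 1-week difference was 0.50 ± 0.27. It ran from 0.24 to 0.77 when 1 array was left out and was 0.95 without both arrays that stand apart. Zfp931 and Zfp971 are both named by 4 further probe sets that each name 14 to 18 genes and were not used for either gene, and 2 of the 4 held the same values. In those 4, MPTP minus saline was 0.10 to 0.20 at 1 week and -0.03 to 0.04 at 4 weeks. How much of the signal of either gene came from related mRNAs was not tested.

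Zfp874b differed more with time in saline than with treatment at either time. It read 6.36 and 6.79 in saline and 6.35 and 6.32 in MPTP at 1 week, and 6.17 and 5.79 in saline and 6.17 and 6.18 in MPTP at 4 weeks. Its highest array (6.79) and its lowest (5.79) were both saline arrays. MPTP minus saline was -0.25 ± 0.15 at 1 week, without overlap but with a gap of less than the spread of the saline pair, and 0.20 ± 0.15 at 4 weeks, where the upper saline and the lower MPTP array read the same. The difference between 4 weeks and 1 week in saline was -0.60 ± 0.15, the third lowest of all genes. With MPTP the difference with time was -0.16 ± 0.15, smaller in size than the MPTP difference at either time. Without both arrays that stand apart the 1-week MPTP difference was -0.04, and over both times it turned from -0.02 to 0.12.

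Zfp979 gave 2.92 and 3.17 in saline and 2.77 and 2.93 in MPTP at 1 week, and 2.52 and 2.55 in saline and 2.55 and 3.07 in MPTP at 4 weeks. Both saline arrays at 4 weeks were low, and 1 of the MPTP arrays at 4 weeks was as low as they were. The MPTP difference was -0.19 ± 0.16 at 1 week, with overlap, and 0.28 ± 0.16 at 4 weeks. Without MPTP 4 weeks array 2 the 4-week value was 0.02, and without both arrays that stand apart the 1-week value turned to 0.01. Over both times Zfp979 stood at 0.04 ± 0.13, and at 0.19 without both arrays.

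**Figure D2:**
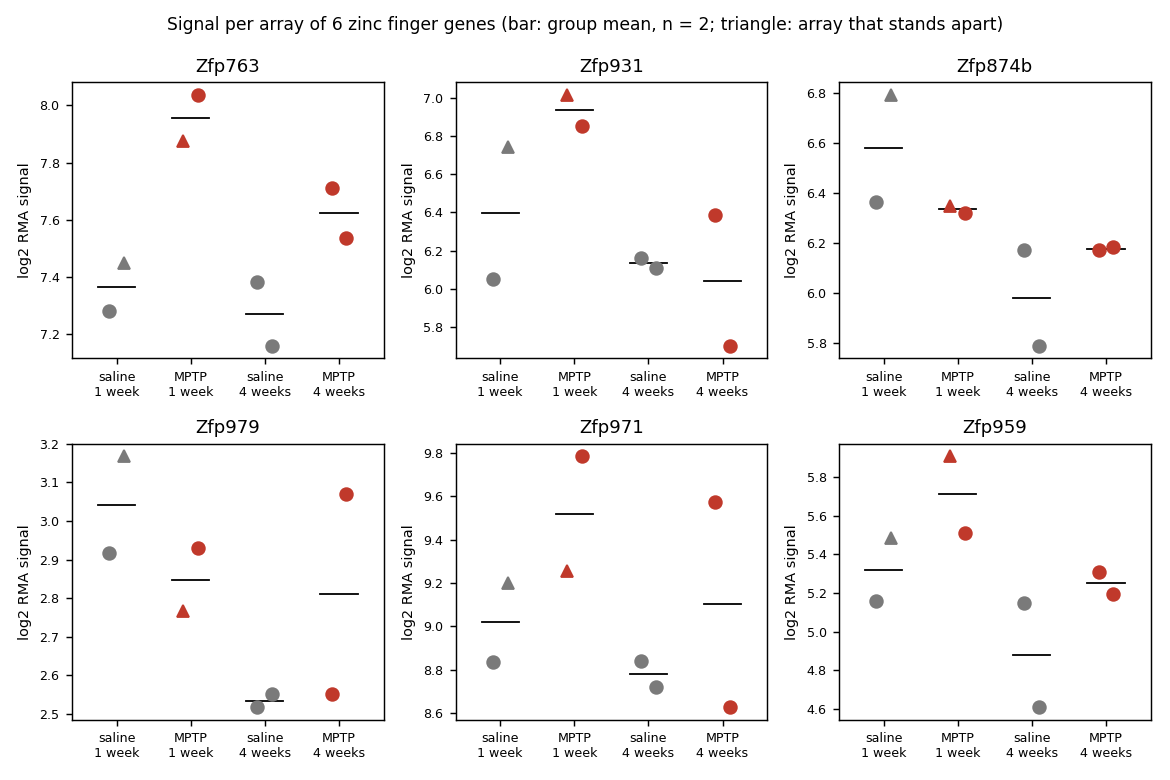
Each panel plots the log2 RMA signal of 1 gene, with a point per array (gray saline, red MPTP), a bar at the mean of each group (n = 2) and a triangle for an array that stands apart; the vertical axes differ between panels. Zfp763 is the 1 panel in which all 4 MPTP arrays lie above all 4 saline arrays, and in Zfp931 and Zfp971 the MPTP arrays at 4 weeks lie far apart (6.38 and 5.70, 9.58 and 8.63).

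MPTP against saline at 1 week addresses the early response of the retina. Over the 148 genes, 81 differences were above 0 and 67 below, with a median of 0.01, against a median of -0.01 over all genes. No gene of the family and no gene of the series (0%) passed an adjusted p of 0.05. At an unadjusted p under 0.05 there were 5 higher genes, where 1.87% of all genes were called higher, and 1 lower gene, where 2.36% were called lower. The arrays of the groups did not overlap for 22 higher and 13 lower genes, against 12.5% and 13.8% of all genes. Both directions together made 23.6% of the family and 26.3% of all genes, so the share lay a little below the background.

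The 5 higher genes were Zfp763, Zfp931, Zfp623 (0.27 ± 0.10), Zfp954 (0.25 ± 0.10) and Zfp607b (0.24 ± 0.11). Zfp623 read 7.43 and 7.23 in saline and 7.66 and 7.54 in MPTP, with no overlap. Zfp959 stood at 0.39 ± 0.19, from 5.16 and 5.48 in saline to 5.91 and 5.51 in MPTP, where the upper saline and the lower MPTP array nearly met. Zfp770 stood at 0.21 ± 0.11. The lower gene was Zfp941 at -0.23 ± 0.10, with 7.88 and 7.99 in saline and 7.82 and 7.60 in MPTP. Below it in size came Zfp790 (-0.20 ± 0.10), Zfp760 (-0.16 ± 0.09), Zfp664 (-0.16 ± 0.09) and Zfp957 (-0.15 ± 0.10). Zfp668, whose human counterpart has been tied to DNA repair, stood at -0.13 ± 0.10 and Zfp821 at -0.13 ± 0.09. Without both arrays that stand apart, Zfp623 stood at 0.11, Zfp770 at 0.11, Zfp790 at -0.10, Zfp664 at -0.10 and Zfp821 at -0.05. The 6 genes at an unadjusted p under 0.05 (4.22% of all genes, both directions together) became 10 without saline 1 week array 1 (5.76%) and 18 without saline 1 week array 2 (9.41%). They became 12 without MPTP 1 week array 1 (5.1%) or array 2 (7.02%), and 3 without either saline 4 weeks array (3.16%). Without both arrays that stand apart they were 16, beside 8.52% of all genes, so the share over all genes moved with the count of members.

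MPTP against saline at 4 weeks addresses the late response. Differences were above 0 for 85 genes and below 0 for 63, with a median of 0.02 against 0.00 over all genes (0.00426). No gene passed an adjusted p of 0.05, in the family or among all genes (0%). Below an unadjusted p of 0.05 were 2 higher genes (1.1% of all genes were called higher) and 1 lower gene (0.813%). Arrays did not overlap for 35 higher and 29 lower genes, against 17.4% and 17.9% of all genes. That is 43.2% of the family and 35.3% of all genes.

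The pair of higher genes was Zfp763 and Zfp772 (0.29 ± 0.11), which read 6.84 and 6.95 in saline and 7.20 and 7.18 in MPTP. The MPTP values of Zfp772 lay close together and well above saline at 4 weeks, while at 1 week one of its MPTP arrays (6.96) lay between the saline arrays (6.98 and 6.90). Probe sets shared with other genes did not give the same picture: 2 that name Zfp772 among 3 genes each gave 0.02 and 0.03 at 4 weeks, and -0.25 and -0.21 at 1 week. Zfp959 stood at 0.37 ± 0.19, Zfp617 at 0.28 ± 0.14, Zfp954 at 0.23 ± 0.10, Zfp735 at 0.20 ± 0.14 and Zfp605 at 0.19 ± 0.10, all without overlap.

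The lower gene was Zfp687, a many-fingered nuclear protein whose human counterpart is mutated in a form of Paget disease of bone. It stood at -0.25 ± 0.09, from 8.04 and 8.15 in saline to 7.80 and 7.88 in MPTP. Zfp980 had the lowest difference of the family, -0.57 ± 0.31, the second lowest of all genes, but its standard error is wide and its signal dim. Zfp942 (-0.27 ± 0.13), Zfp935 (-0.25 ± 0.19), Zfp949 (-0.22 ± 0.12) and Zfp706 (-0.21 ± 0.12) followed among genes without overlap. Zfp738 and Zfp948 both stood near them, at -0.19 ± 0.12 and -0.18 ± 0.11. A shared probe set that names Zfp935 among 4 genes gave 0.17 at 4 weeks. For Zfp706 a dimmer second probe set gave -0.06 here and 0.12 at 1 week, where the one used gave -0.15, and for Zfp738 one of its other probe sets gave 0.01. The 3 genes at an unadjusted p under 0.05 (1.91% of all genes) became 6 without either saline 1 week array (2.82%), 5 without either MPTP 1 week array (2.2%), and 5 without saline 4 weeks array 1 (1.23%). They became 8 without MPTP 4 weeks array 2 (3.4%) and 12 without both arrays that stand apart (4.72%).

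Taking both times in 1 model, with time as a term, gave 4 arrays per treatment. Differences were above 0 for 83 genes and below 0 for 65, with a median of 0.01, and none passed an adjusted p of 0.05, as for all genes (0%). There were 8 genes at an unadjusted p under 0.05 that were higher (2.3% of all genes were called higher) and 4 that were lower (2.47%). All 4 MPTP arrays lay above all 4 saline arrays for 2 genes (1.01% of all genes) and below them for 2 genes (1.49%), in total 2.7% of the family and 2.5% of all genes. These 4 were Zfp763, Zfp954 (0.24 ± 0.07), Zfp687 (-0.17 ± 0.06) and Zfp664 (-0.11 ± 0.06). A dimmer second probe set of Zfp664 gave 0.01 at 1 week and 0.05 at 4 weeks, above 0 at both times, and the mean of its probe sets gave -0.04 over both times.

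Zfp954 read 5.42 and 5.55 in saline and 5.80 and 5.68 in MPTP at 1 week, and 5.56 and 5.44 in saline and 5.82 and 5.64 in MPTP at 4 weeks. Its lowest MPTP array (5.64) lay above its highest saline array (5.56), a narrow gap. The other higher genes were Zfp971 (0.41 ± 0.19), Zfp959 (0.38 ± 0.13), Zfp772 (0.24 ± 0.08), Zfp617 (0.23 ± 0.09), Zfp729b (0.21 ± 0.09) and Zfp605 (0.20 ± 0.06). The other lower genes were Zfp947 (-0.21 ± 0.09), Zfp948 (-0.17 ± 0.07) and Zfp655 (-0.13 ± 0.06). Without saline 4 weeks array 2 the 12 genes at an unadjusted p under 0.05 (4.76% of all genes) became 7 (2.99%).

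The comparisons at 1 and at 4 weeks share no array, so their values can be set side by side. Both were above 0 for 52 genes, both below 0 for 34, and the signs differed for 62. Without overlap at either time there were 7 higher genes (2.65% of all genes) and 6 lower genes (3.41% of all genes), so 4.73% and 4.05% of the family. The higher ones were Zfp605 (0.20 and 0.19), Zfp638, Zfp661 (0.07 and 0.11), Zfp667 (0.12 and 0.09), Zfp763, Zfp954 (0.25 and 0.23) and Zfp959 (0.39 and 0.37). With 1 array left out, Zfp959 ran from 0.19 to 0.59 at 1 week and from 0.10 to 0.64 at 4 weeks. The lower ones were Zfp655 (-0.09 and -0.17), Zfp664 (-0.16 and -0.06), Zfp687 (-0.10 and -0.25), Zfp760 (-0.16 and -0.08), Zfp821 (-0.13 and -0.08) and Zfp957 (-0.15 and -0.12). Zfp638, which binds retroviral DNA and takes part in its silencing, gave 0.10 and 0.11. It read 9.36 and 9.49 in saline and 9.53 and 9.52 in MPTP at 1 week, and 9.39 and 9.33 in saline and 9.55 and 9.40 in MPTP at 4 weeks, so that at 4 weeks the lower MPTP array almost touched saline.

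Subtracting the 1-week MPTP effect from the 4-week effect asks which genes responded differently early and late. Differences were above 0 for 69 genes and below 0 for 79. None passed an adjusted p of 0.05 (0% of all genes). At an unadjusted p under 0.05 there was no higher gene, where 1.42% of all genes were called, and 1 lower gene, Zfp623 at -0.41 ± 0.14, where 0.537% were called. Zfp623 was above saline with MPTP at 1 week, but at 4 weeks it read 7.44 and 7.37 in saline and 7.29 and 7.25 in MPTP. Zfp931 gave the lowest value, -0.63 ± 0.33, followed after Zfp623 by Zfp738 (-0.37 ± 0.17), Zfp980 (-0.36 ± 0.44) and Zfp983 (-0.27 ± 0.16). The highest were Zfp979 (0.47 ± 0.22), Zfp874b (0.44 ± 0.22), Zfp991 (0.38 ± 0.31), Zfp735 (0.35 ± 0.20) and Zfp707 (0.34 ± 0.16). Zfp980 turned to 0.23 without MPTP 1 week array 2. For Zfp983, a shared probe set that names 2 genes gave MPTP minus saline of -0.40 at 1 week and -0.13 at 4 weeks. Another, which names 3 genes, gave 0.207 and -0.205. Without both arrays that stand apart, Zfp980 stood at -0.94, Zfp735 at 0.67, Zfp979 at 0.26, Zfp874b at 0.24 and Zfp623 at -0.25. Zfp763, at -0.24 ± 0.16 in this comparison, then stood at -0.40. The count of 1 gene (1.96% of all genes) became 6 without saline 1 week array 1 (2.2%), 9 without saline 1 week array 2 (7.25%), 5 without MPTP 1 week array 1 (2.32%), and 4 without MPTP 1 week array 2 (4.96%). It became 4 without saline 4 weeks array 2 (1.45%), 5 without MPTP 4 weeks array 1 (2.1%), 2 without MPTP 4 weeks array 2 (2.01%), and 12 without both arrays that stand apart (6.75%).

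**Figure D3:**
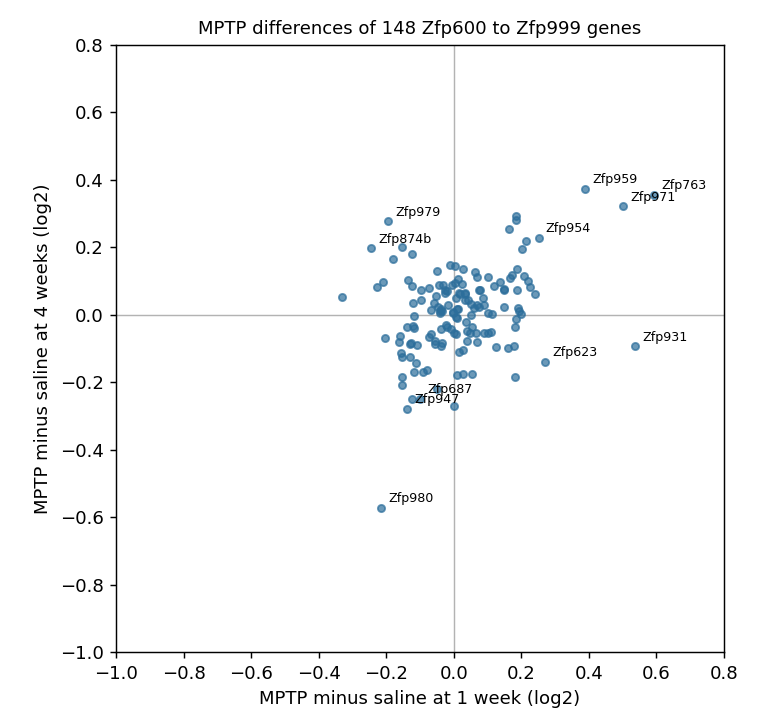
Each point is 1 of the 148 genes, with the log2 difference MPTP minus saline at 1 week on the horizontal axis and at 4 weeks on the vertical axis (n = 2 arrays per group). Zfp763 (0.59 and 0.35) and Zfp959 (0.39 and 0.37) lie high on both axes, Zfp931 is high on the first axis alone (0.54 and -0.09), and Zfp980 is low on the second (-0.57).

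With time, more of the family read low than high, in both treatments. From 1 to 4 weeks in saline, 104 of the 148 differences were below 0 and 44 above, with a median of -0.05 against 0.00 over all genes (0.00124). Below 0 were 70.3% of the family, 125 of the 194 genes Zfp1 to Zfp599, and 49.4% of all genes. With MPTP 97 were below 0 and 51 above, with a median of -0.05 against 0.01. Below 0 were 65.5% of the family, 123 of the 194 genes Zfp1 to Zfp599, and 46.7% of all genes. These comparisons share no array, and 79 genes were below 0 in both, 26 above 0 in both and 43 of opposite sign.

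In saline much of this shift moved with the arrays that stand apart, and with MPTP less of it did. Both of these arrays were 1-week arrays with high zinc finger signal. Without both, the saline median was -0.01 (-0.00786), with 53.4% of the family and 55.2% of all genes below 0. The MPTP median was then -0.03, with 58.8% of the family and 50.4% of all genes below 0. Without saline 1 week array 1 instead, the saline median was -0.09. After quantile normalization, 63.5% of the family and 49% of all genes were below 0 in saline. With MPTP these shares were 57.4% and 49.3% after that normalization. Signal level moved with the share too. Among genes above percentile 50 of signal, of which 88 were members, 76.1% of members and 61.4% of all genes were below 0 in saline. With MPTP these shares were 71.6% and 69%, so with MPTP the family lay close to the background at that level of signal.

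In saline no gene of the family passed an adjusted p of 0.05, as for all genes (0%). The unadjusted p was under 0.05 for 2 higher genes (0.873% of all genes) and 8 lower genes (1.25% of all genes). The lower ones with the largest differences were Zfp874b, Zfp979 (-0.51 ± 0.16), Zfp959 (-0.44 ± 0.19), Zfp729b (-0.36 ± 0.13) and Zfp830 (-0.36 ± 0.09). The higher ones were Zfp750 (0.29 ± 0.10), a transcription factor of epidermal differentiation, and Zfp872 (0.27 ± 0.11), beside larger or smaller differences that missed that p in Zfp980 (0.32 ± 0.31), Zfp710 (0.22 ± 0.13) and Zfp663 (0.22 ± 0.12). Without both arrays that stand apart, Zfp874b stood at -0.39, Zfp959 at -0.28, Zfp872 at 0.14 and Zfp710 at 0.08, and Zfp763 (-0.09 ± 0.12) and Zfp931 (-0.26 ± 0.24) stood at -0.01 and 0.08. The 10 genes (2.13% of all genes) became 23 without saline 1 week array 1 (8.47%), 3 without saline 1 week array 2 (3.33%), and 4 without saline 4 weeks array 2 (0.993%).

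With MPTP no gene passed an adjusted p of 0.05 either (0% of all genes; the smallest was 0.507). At an unadjusted p under 0.05 stood 4 higher genes (5.43% of all genes were called higher) and 15 lower genes (4.36% were called lower). Lowest was Zfp931 at -0.89 ± 0.24, the fourth lowest of all genes, followed by Zfp738 (-0.52 ± 0.12), Zfp959 (-0.46 ± 0.19), Zfp715 (-0.38 ± 0.12) and Zfp983 (-0.36 ± 0.11). Zfp738 read 8.08 and 8.07 at 1 week and 7.58 and 7.53 at 4 weeks. The spread within each pair was small beside the distance between the pairs, but the mean of the Zfp738 probe sets gave -0.26. Highest were Zfp750 (0.44 ± 0.10), Zfp648 (0.35 ± 0.10), Zfp951 (0.35 ± 0.16), Zfp707 (0.28 ± 0.12) and Zfp735 (0.27 ± 0.14). Without both arrays that stand apart, Zfp959 stood at -0.26, and Zfp979 (-0.04 ± 0.16) at -0.12. The 19 genes (9.79% of all genes) became 29 without MPTP 1 week array 2 (15.8%) and 10 without MPTP 4 weeks array 2 (5.79%).

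Zfp830, a gene needed in the early embryo, and Zfp750 gave like values in both treatments. Zfp830 read 7.91 and 8.05 at 1 week and 7.64 and 7.60 at 4 weeks in saline, and 8.10 and 8.01 then 7.76 and 7.64 with MPTP. All 4 arrays at 4 weeks lay below all 4 arrays at 1 week, with differences of -0.36 ± 0.09 in either treatment. Zfp750 read 6.40 and 6.31 then 6.60 and 6.70 in saline, and 6.37 and 6.20 then 6.67 and 6.78 with MPTP. Here all 4 arrays at 4 weeks lay above all 4 at 1 week. Such separation within a treatment was common: arrays did not overlap between the times for 35.1% of the family and 27.7% of all genes in saline. With MPTP these shares were 39.2% and 44.3%. In both treatments alike it held for 5 higher and 15 lower genes of the family, and the share of all genes was not counted for that.

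**Figure D4:**
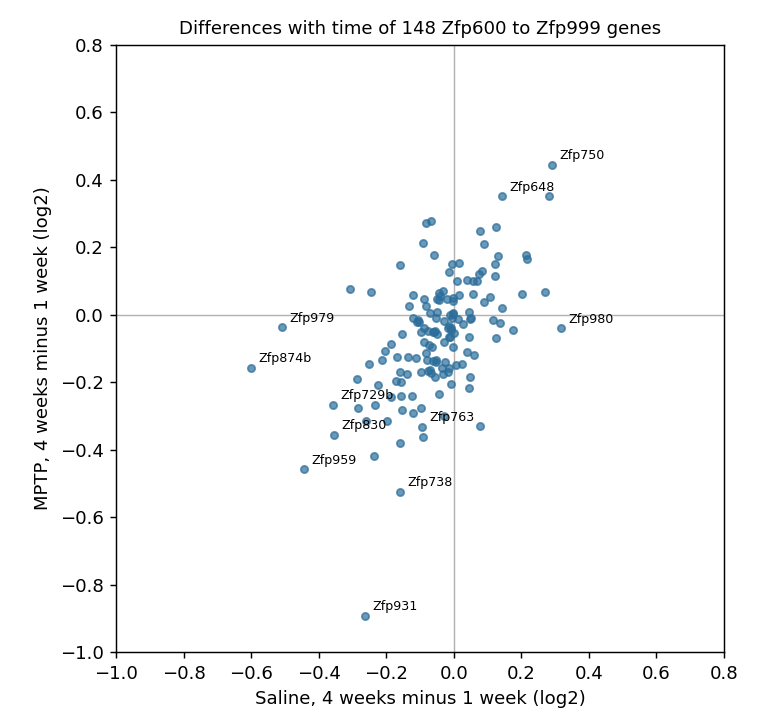
Each point is 1 of the 148 genes, with the log2 difference 4 weeks minus 1 week in saline on the horizontal axis and with MPTP on the vertical axis (n = 2 arrays per group). The lower left part holds 79 genes, with Zfp830 (-0.36 on both axes) and Zfp959 (-0.44 and -0.46), and Zfp931 lies lowest on the vertical axis (-0.89).

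Several members are known for a role in other settings, and these were looked up for that reason, outside the rule for named genes and after their values had been seen. Zfp746, better known as PARIS, is a repressor that the ubiquitin ligase parkin marks for degradation, and it accumulates when parkin is lost. It read 7.45 and 7.44 in saline and 7.44 and 7.43 in MPTP at 1 week, and 7.41 and 7.57 in saline and 7.40 and 7.49 in MPTP at 4 weeks. MPTP minus saline was -0.01 ± 0.09 and -0.04 ± 0.09, with 8 arrays within a range of 0.16. These are mRNA signals, and whether the protein accumulated was not measured. Zfp809, which silences murine leukaemia proviruses, gave 0.02 ± 0.08 and 0.06 ± 0.08, and its arrays ran from 7.74 to 7.89. Zfp819, a repressor of endogenous retroviruses in pluripotent cells, gave 0.18 ± 0.15 at 1 week, where 1 MPTP array (6.59) was high and the other (6.07) below saline (6.16 and 6.14). Zfp804a, whose human counterpart lies at a risk locus for schizophrenia, gave -0.04 ± 0.11 at either time and had a mean signal of 9.32.

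Members often sit beside one another. In the RefSeq gene table of GRCm38.p6, which held 147 of the 148 genes, 36 were on chromosome 7, 19 on chromosome 17, 14 on chromosome 8 and 11 on chromosome 13. With no other protein-coding gene between them, 57 genes formed 22 runs of up to 4, which gives 35 neighbouring pairs. The pair had the same sign in 23 cases for MPTP at 1 week, 18 at 4 weeks, 17 over both times and 22 for the difference of effects. It was 23 for time in saline and 28 for time with MPTP, where 70.3% and 65.5% of the family were below 0 in any case. The same count over other gene pairs was not made, so these counts have no background. In the run Zfp709, Zfp882, Zfp617 and Zfp961, the 1-week MPTP differences were 0.21, 0.17, 0.18 and 0.06, and the time differences in saline were -0.28, -0.19, -0.18 and -0.08. In the run Zfp748, Zfp729b, Zfp729a and Zfp738, time differences were -0.21, -0.36, -0.20 and -0.16 in saline and -0.13, -0.27, -0.11 and -0.52 with MPTP. Other runs split: for MPTP at 1 week Zfp623 gave 0.27 and its neighbour Zfp707 -0.18, and Zfp874a gave 0.07 and Zfp874b -0.25. Neighbours can share sequence and hence probe signal, which was not tested.

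Shared sequence also limits how single genes can be read. Of the 148 genes, 140 had 1 probe set with a single name and 8 had more, and 21 were also named by probe sets that name several genes. A further 22 symbols of this number range occurred in shared probe sets alone and are not among the 148. For Zfp788, both probe sets held the same values on every array. At the edge of the rule, the lowest number inside was Zfp600 (mean 2.57) and the highest Zfp991 (5.62), while just outside lay Zfp599 (6.84) and Zfp598 (7.31), and no numbered Zfp symbol lay above the range. Zfp592, a known partner of Zfp687 whose number is also just outside, read 7.58 and 7.69 in saline and 7.21 and 7.53 in MPTP at 4 weeks, with no overlap.

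The proteins through which KRAB zinc finger proteins act were followed with a list of 30 names, of which 26 genes were measured. None passed an adjusted p of 0.05 in any of the 6 comparisons. The shares of all genes at an unadjusted p under 0.05 were 4.22% at 1 week, 1.91% at 4 weeks and 4.76% over both times. On the list there were 2 higher at that p at 1 week (7.69% of the 26), namely Morc3 (0.25 ± 0.09), which silences retroviral elements, and Cbx3 (0.23 ± 0.10), which codes for an HP1 protein. At 4 weeks there was 1 lower, Morc2a (-0.22 ± 0.10), which works with the HUSH silencing complex, and over both times Cbx3 (0.19 ± 0.07) and Trim28 (-0.15 ± 0.06). In the difference between both MPTP effects Morc3 stood at -0.29 ± 0.12 (1.96% of all genes were at that p), and in saline with time there were 0 (2.13% of all genes). The list medians were 0.00 (-0.00226) at 1 week, -0.03 at 4 weeks and -0.01 over both times.

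Trim28, the corepressor itself, read 8.03 and 8.13 in saline and 7.91 and 8.02 in MPTP at 1 week, and 8.04 and 8.04 in saline and 7.83 and 7.88 in MPTP at 4 weeks. All 4 MPTP arrays lay below all 4 saline arrays, by a narrow margin at 1 week, as they did for 1.49% of all genes. On the list the same held for Cbx5 (-0.11 ± 0.06 over both times), and no listed gene was separated in the other direction. Setdb1, the methyltransferase that Trim28 brings in, gave 0.06 ± 0.10 and -0.01 ± 0.10. With MPTP, 22 of the 26 genes were below 0 from 1 to 4 weeks, with a median of -0.08, against 46.7% of all genes and a median of 0.01. Of the 26 genes, 25 lay above percentile 50 of signal, and 69% of all genes above that percentile were below 0. At an unadjusted p under 0.05 stood 15.4% of the list and 9.79% of all genes. In a fit of the genes above percentile 50 alone, 12.6% of those genes were at that p. The list genes were Morc3 (-0.42 ± 0.09), Mta2 (-0.33 ± 0.11) and Hdac1 (-0.20 ± 0.08), and in the other direction Uhrf1 (0.28 ± 0.09). Mta2 and Hdac1 are parts of the NuRD deacetylase complex, and Uhrf1 is needed to maintain DNA methylation.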

How the data were processed

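The deposited log2 signals were made by the authors with RMA in Affymetrix Expression Console (per the submitters' processing notes), which summarizes each probe set and normalizes between arrays. The signals of the genes compared still differed in spread, with interquartile ranges from 1.655 to 1.916 over the arrays. Amplification by the SPIA method started from 100 ng of total RNA, per the labels' protocols. Of 28944 probe sets, 21789 named 1 gene, 1621 several and 5534 none. Those with several genes or none were left out, and a gene was represented by its brightest probe set. Dim signal was not filtered.

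The 8 arrays were fitted with limma 3.58.1 in R 4.3.3 (two-sided moderated tests), with a mean per group (4 residual degrees of freedom) or, for both times, with additive time and treatment (5). Benjamini-Hochberg adjustment ran over 19938 genes at a threshold of 0.05, and errors are standard errors of that fit. The p-values reflect only the spread between these arrays, whose number limits the precision. The code was tested on simulated data. Plots used Python 3.11.15 and matplotlib 3.10.9.

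The members, the corepressor list and the tests were chosen with earlier results of these data known. Named were the 4 genes behind the choice, the 8 highest and 8 lowest in each MPTP comparison and the 5 in each comparison over time, all without overlap between groups, the 5 highest and 5 lowest differences of effects, the extremes of level and range, and the edges of the number range. A planned comparison of the proteins was not made, since no protein sequences were used here. Alternatives were other normalizations, a filter at percentile 50, the mean of probe sets, eBayes with trend and robust settings, only the groups compared, a block for array numbers, single arrays left out, and both arrays that stand apart left out.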

Additional observations from a re-analysis of the deposited data

How the results depend on the processing

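No member passed an adjusted p of 0.05 under any alternative; the smallest was 0.166 for a named member. Of 1260 values of named members over the alternatives, 15 changed sign and the rest kept it. At an unadjusted p under 0.05, the count at 4 weeks was 8 after quantile (2.83% of all genes) or cyclic loess normalization (2.64%). It was 5 with the filter at percentile 50 (1.96% of the genes kept) and 6 with trend and robust settings (1.78%). With only the groups compared it was 12 (4.72%). For the difference of effects it was 4 after either normalization (2.37% and 2.3% of all genes). It was 3 with the filter (1.27% of the genes kept) or with trend and robust settings (1.55%). At 1 week it was 16 without both arrays. The difference between array 1 and array 2 of a group correlated between groups at -0.383 to 0.207 over genes. With 2 arrays per group, 1 of them apart in each 1-week group, this cannot decide whether array numbers pair the samples. With the number as a replicate block the counts were 3 at 1 week (3.58% of all genes) and 2 for the difference of effects (1.64%). With the numbers crossed, a choice made after seeing the data, the count at 1 week was 4. The share of all genes was not kept for that setting. The MPTP median with time was -0.0861 after centring on the median, and the saline median with time was -0.00786 without both arrays. Without both arrays, Zfp979 at 1 week turned to 0.0135, Zfp874b over both times to 0.117 and Zfp931 with time in saline to 0.0823.

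Leaving out 1 array in turn gave counts of 3 to 18 at 1 week, 2 to 8 at 4 weeks, 7 to 17 over both times, 1 to 9 for the difference of effects, 3 to 23 with time in saline and 10 to 29 with time under MPTP. The medians ran from -0.0371 to 0.022 for the difference of effects and from -0.0867 to -0.00786 with time in saline. Single genes that changed sign were Zfp874b (-0.145 to 0.106) and Zfp979 (-0.109 to 0.139) over both times, Zfp931 (-0.607 to 0.0823) and Zfp763 (-0.205 to 0.0171) with time in saline, Zfp979 with time under MPTP (-0.296 to 0.222), Zfp980 in the difference of effects (-0.937 to 0.225) and Zfp931 at 4 weeks (-0.435 to 0.248). The causes were not tested.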
